A study of Homo sapiens with 16 samples.

Results

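RNA of PC9 LeptoM cells carrying a control hairpin was compared with RNA of parental PC9 cells, for every gene with enough signal in the PC9 table. The comparison uses 4 of the 16 libraries of the series, 2 LeptoM shCTL and 2 parental, and 15650 of 19454 gene rows had a mean value of at least 10 over the 8 PC9 libraries and were tested. PC9 is an established human lung adenocarcinoma line driven by a mutant epidermal growth factor receptor. LeptoM names a derivative able to grow as metastasis in the leptomeninges, which are the membranes and fluid space around the brain. The parental cells carry no hairpin, whereas the LeptoM cells received the hairpin shCTL in a lentivirus, so the derivation and the vector cannot be told apart. Both groups were grown in dishes and lysed 2 days after seeding. Separate cultures are not named in the labels for the 2 libraries of each group, and the p-values therefore reflect only how far these libraries vary, possibly for technical reasons. The other 4 PC9 libraries, LeptoM cells with the LCN2 hairpins shLCN2_1 or shLCN2_2, entered the estimate of the spread and are shown as grey points in the plots. The labels name 1 LeptoM derivative of PC9, and the comparison is therefore of 1 selected line with its parent.

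Lung adenocarcinoma cells keep parts of the programs of the airway and alveolar epithelium. Airway secretory cells make mucins, antimicrobial proteins and protease inhibitors, and they detoxify aldehydes and inhaled chemicals with dedicated enzymes. Squamous differentiation replaces this coat with keratins and cross-linked cornified proteins, and a mesenchymal program brings vimentin, fibronectin and motility. Cerebrospinal fluid holds far less protein and fewer cells than blood.

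Of the tested genes, 3720 were higher in the LeptoM shCTL cells (23.8%) and 3418 were lower (21.8%), together 45.6%, at an adjusted p under 0.05 by limma with Benjamini-Hochberg adjustment. The counts were 3506 and 2855 without parental replicate 2, 2247 and 1914 without shCTL replicate 1, and 2353 and 2007 without shCTL replicate 2. Among tested genes large changes were mostly gains, with 1476 genes higher by at least 1 on the log2 scale against 622 lower. Only 2 of the 8 libraries in the minimum mean are parental. A gene high only in LeptoM cells therefore passed that filter more easily than a gene high only in parental cells. The part of the filter in this difference was not tested. Genes called higher held 19.4% of the summed value in the parental libraries and 29% in the shCTL libraries. The median log2 change over all tested genes was 0.01. All values below are normalized read counts, all changes are differences of log2(value + 1) between shCTL and parental with their standard error (SE), and all adjusted p-values come from that limma fit. Genes were grouped in 38 lists of lineage, secretory and metabolic programs. The share of a list that passed the test is read against the shares over all genes. The lists were drawn up with earlier results of these data known. A share above that of all genes is therefore a description and not independent support. ALDH1A2, ALOX5, AQP3, ASNS, ATIC, C3, CDH1, CDH2, CDH5, COX6B1, CRABP2, CYP4F11, EPHX1, GCLM, HSP90B1, HSPA5, KRT5, KRT6A, KRT6B, KRT13, KRT16, MT2A, MUC4, PGD, PTPRC, RRM2, SCGB1A1, SCIN, SCNN1A, SLC7A11, SLPI, SPRR3, TGFB1, TGFBI, TKT, TP63 and TXN fall outside the rule for named genes and were chosen after their values were seen.

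The squamous and cornified genes were among the strongest gains. Of 28 listed genes of basal and squamous cells, 19 were tested, 12 were higher and 0 lower, with a median log2 change of 1.52. The small proline-rich proteins, which are cross-linked into the cornified envelope, came first. SPRR1A had 15.9 and 31.7 in the parental libraries and 1066 and 1033 in the shCTL libraries, a log2 change of 5.48 (SE 0.48, adjusted p = 7.58e-05). SPRR3 had 122 and 130.3 against 3060.0 and 2686, a change of 4.5 (SE 0.43, adjusted p = 0.000118). In both genes each shCTL library lay far above each parental library. The mucosal keratins moved with them. KRT4 had 10.9 and 4.7 in parental and 241 and 225 in shCTL cells, a change of 4.83 (SE 0.45, adjusted p = 0.00011). KRT13, its usual partner in mucosa, had 10.9 and 28.2 against 462 and 385, a change of 4.5 (SE 0.55, adjusted p = 0.000423), and 3.86 and 5.15 without parental replicate 1 or 2. The injury keratin KRT16 had 218 and 236 against 694 and 612, a change of 1.52 (SE 0.11, adjusted p = 3.11e-05).

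The basal cell genes KRT5 and TP63 did not pass the test. KRT5, the main basal keratin, had 29.8 and 30.5 in parental and 23.9 and 18.3 in shCTL cells, a change of -0.51 with adjusted p = 0.693. TP63, the master regulator of basal cells, had 62.5 and 76.3 against 90.8 and 109.8, a change of 0.53 with adjusted p = 0.251, and 0.0486 without shLCN2_1 replicate 1. KRT6A had 1275 and 1367 against 2235 and 2123 and KRT6B had 4525 and 4867 against 2771 and 2528. Neither keratin passed (adjusted p = 0.516 and 0.532), although their groups did not overlap. The shLCN2_1 libraries vary most among themselves and enter the spread. Without shLCN2_1 replicate 1 the adjusted p-values were 0.00117 for KRT6A and 5.32e-05 for KRT6B, and 2 list members became lower. Reads of SPRR1A, SPRR1B, KRT6A and KRT6B may be split between near-identical copies, so single members of these families are uncertain.

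Genes of airway secretory cells were the list with the highest share of gains. Of 30 listed genes 12 were tested, 10 were higher and 1 lower, with a median of 1.68. AGR2, a disulfide isomerase needed for mucin folding, had 394 and 353 in parental and 3026 and 2965 in shCTL cells, a change of 3.0 (SE 0.17, adjusted p = 8.31e-06). BPIFB1, a secreted airway defence protein, had 107 and 106 against 539.5 and 489, a change of 2.26 (SE 0.19, adjusted p = 6.45e-05). TFF1, a trefoil peptide of mucus, had 78.4 and 107 against 410.1 and 375, a change of 2.09 (SE 0.17, adjusted p = 6.09e-05). SPDEF, the transcription factor of goblet cells, had 58.5 and 75.2 against 193 and 183, a change of 1.49 (SE 0.16, adjusted p = 0.000219). In all 4 genes the groups lay well apart. The club cell protein SCGB1A1 was low in both groups, at 5.95 and 0 against 45 and 45.7. Its change of 4.14 (adjusted p = 0.00272) was 5.53 without parental replicate 1, 2.74 without parental replicate 2 and 2.97 with 4 added before log2. The 1 secretory gene that fell was WFDC2, a protease inhibitor made widely in airway and tumour epithelium, from 730.3 and 856 to 495 and 484, a change of -0.69 (SE 0.13, adjusted p = 0.00299).

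Alveolar and other lineage markers gave no comparable block. The shares higher and lower were 25% and 50% for alveolar type 2 genes and 36.4% and 9.09% for alveolar type 1 genes. They were 33.3% and 8.33% for ciliated cell genes, against 23.8% and 21.8% over all genes. Of 17 genes of alveolar type 2 cells 8 were tested, 2 were higher and 4 lower, with a median of -0.29. CEBPD, 1 of the 2 gains, lost its call (adjusted p = 0.114) once the GC trend was taken out, and 1 gene was called higher without shCTL replicate 1. The defining surfactant gene SFTPB had 0 in both parental libraries and 2.75 and 1.02 in the shCTL libraries, and NKX2-1, the lung lineage factor, had 0 in both parental libraries and 2.75 and 3.05 in the shCTL libraries, at or under the value of about 3 reads. LPCAT1, an enzyme of surfactant lipid synthesis, fell from 5693 and 6118 to 3271 and 3241, a change of -0.86 (SE 0.15, adjusted p = 0.00252). LAMP3, a membrane protein of lamellar bodies, fell from 590.4 and 555 to 319 and 306, a change of -0.87 (SE 0.13, adjusted p = 0.00107). Of 11 tested alveolar type 1 genes 4 were higher and 1 lower, with 2 or 3 lower without shLCN2_1 replicate 1 or 2. HOPX, a homeodomain protein of alveolar type 1 cells, had 2.98 and 4.7 in parental and 105 and 102 in shCTL cells, a change of 4.45 (SE 0.24, adjusted p = 8.24e-06), or 3.78 with 4 added before log2. GPRC5A, a lung epithelial receptor and one of the most abundant genes of that list, had 25006 and 23183 against 50396 and 49159.9, a change of 1.05 (SE 0.14, adjusted p = 0.000597). Of 12 tested ciliated cell genes 4 were higher and 1 lower, with 3 lower without either shLCN2_1 library and 0 lower when any 1 of the other libraries was left out. Neuroendocrine genes gave 0 higher and 2 lower of 5 tested, and gastrointestinal genes gave 2 higher and 2 lower of 4, with 0 to 1 higher without parental replicate 2 or either shCTL library.

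Of 20 immune and stromal genes 7 were tested, 1 was higher and 1 lower, and their summed value was 1809 and 1962 in the parental and 1742 and 1763 in the shCTL libraries. The lower gene was CSF1R, a receptor of macrophages, at 683 and 762 in parental and 435 and 415 in shCTL cells (change -0.76, adjusted p = 0.0331), and its call was lost (adjusted p 0.0559 to 0.135) when any 1 of the compared or shLCN2_2 libraries was left out. CDH5, an endothelial cadherin, had 965 and 1025 in parental and 1053 and 1018 in shCTL cells (adjusted p = 0.829). The leukocyte marker PTPRC had 11.9 and 8.22 in parental and 16.5 and 16.3 in shCTL cells, a change of 0.67 with adjusted p = 0.241. CD68, a lysosomal glycoprotein of macrophages and many other cells, was higher, with 21.8 and 30.5 against 71.6 and 147, a change of 1.95 (adjusted p = 0.00473). Of 23 genes of choroid plexus and leptomeninges 8 were tested, 5 were higher (62.5%) and 1 lower (12.5%). Over all genes the shares were 23.8% and 21.8%. Only 2 were higher when the minimum mean was 50. PTGDS, a defining gene of the leptomeninges, had 0 in 3 of the 4 libraries and 5.51 in shCTL replicate 1. The members that rose included FOLR1, a folate receptor of choroid plexus and lung epithelium, at 30.8 and 32.9 against 99.1 and 66.1 (change 1.32, adjusted p = 0.00167). ALDH1A2, a retinoic acid synthase of meninges, had 2.98 and 5.87 against 22.9 and 29.5 (change 2.37, adjusted p = 0.000849). The member that fell was PCOLCE2, from 308 and 269 to 136 and 109 (change -1.24, adjusted p = 0.000578).

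The mesenchymal genes formed the clearest lineage loss. Of 33 listed genes 24 were tested, 15 were lower and 4 higher, 14 of the lower ones by at least 1 on the log2 scale, and the median was -1.38. The summed value of the tested members was 185737 and 178987 in the parental and 41404 and 40957 in the shCTL libraries. AXL, a receptor tyrosine kinase of mesenchymal and drug-tolerant PC9 states, had 2474 and 2528 in parental and 67.9 and 104 in shCTL cells, a change of -4.88 (SE 0.29, adjusted p = 1.14e-05). CDH2, the cadherin of mesenchymal cells, fell from 1129 and 1046 to 208 and 198, a change of -2.41 (SE 0.34, adjusted p = 0.000844). In both genes each shCTL library lay far below each parental library. S100A4, a calcium-binding protein on the same list, went the other way, from 139 and 149 to 586 and 654, a change of 2.1 (SE 0.14, adjusted p = 1.7e-05). MSN, which ties the membrane to actin and is on none of the lists, was among the 10 largest losses in value, from 130632 and 125644 to 14159.5 and 13768, a change of -3.2 (SE 0.31, adjusted p = 0.000125).

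Epithelial junction genes were called higher more often than lower, mostly by small amounts. Of 33 tested genes 16 were higher and 7 lower, with a median of 0.36, and 3 were higher by at least 1. The calls were fewer without 1 library, with 8 and 10 higher without shCTL replicate 1 or 2, and with 2 to 4 lower when any 1 of the 4 compared libraries was left out. TJP3, a tight junction scaffold, had 433 and 588 in parental and 1624 and 1659 in shCTL cells, a change of 1.7 (SE 0.17, adjusted p = 0.00015). CLDN4, a claudin of secretory epithelium, had 5812 and 7649 against 14772 and 14108, a change of 1.11 (SE 0.18, adjusted p = 0.00161). CDH1, the epithelial cadherin, had 21592 and 19942 against 20137 and 20276, a change of -0.04 (SE 0.06, adjusted p = 0.657), and the groups overlapped. CDH3, the placental cadherin of basal cells, fell from 8737 and 8832 to 5302 and 4903, a change of -0.78 (SE 0.07, adjusted p = 0.0001).

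Lineage transcription factors were called higher more often than lower. Of 76 listed lineage factors 59 were tested, 29 were higher and 7 lower, with a median of 0.38. MECOM, a zinc finger factor of lung and squamous cancers, had 121 and 124 in parental and 891 and 897 in shCTL cells, a change of 2.85 (SE 0.08, adjusted p = 4.91e-07). KLF5, a factor of proliferating epithelium, had 1963 and 1963 against 6220.0 and 6097, a change of 1.65 (SE 0.09, adjusted p = 8.89e-06). ELF3, an epithelial ETS factor, had 1573 and 1619 against 7249 and 7087, a change of 2.17 (SE 0.33, adjusted p = 0.00118). All 3 held nearly equal values in the 2 libraries of a group. GRHL1 of the grainyhead family of junction regulators had 1503 and 1322 against 3668 and 3591, a change of 1.36 (adjusted p = 3.45e-05), while its relative GRHL2 fell slightly, from 5785 and 5594 to 4572 and 4513 (change -0.32, adjusted p = 0.00241). The developmental factors PAX6 (279.8 and 267 against 740.5 and 749, change 1.44), PAX9 (406 and 403 against 1052 and 1042, change 1.37) and IRX3 (649.9 and 739.8 against 1864 and 1851, change 1.42) were higher with adjusted p-values of 0.000158, 5.76e-05 and 1.49e-05. Both COUP nuclear receptors fell, NR2F1 from 118 and 141 to 16.5 and 17.3 (change -2.86, adjusted p = 0.000114) and NR2F2 from 5202 and 5177 to 2084 and 2226 (change -1.27, adjusted p = 1.8e-05). ETV5, an output of growth factor signalling, fell from 3871 and 3802 to 2694 and 2461 (change -0.58, adjusted p = 0.000322). In each of these genes the groups did not overlap.

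**Figure D1:**
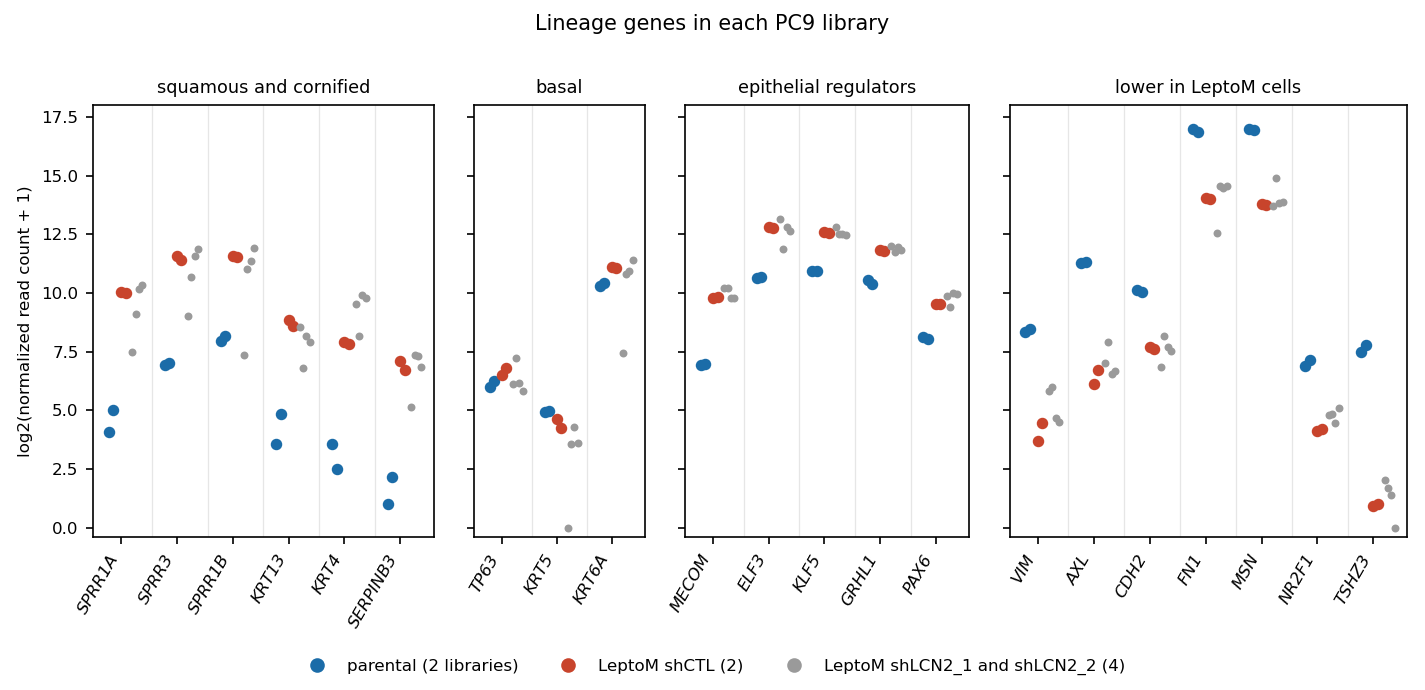
Lineage genes as log2(normalized read count + 1) in each of the 8 PC9 libraries: blue, parental (2); red, LeptoM shCTL (2); grey, LeptoM with either LCN2 hairpin (4). Cornified genes and epithelial regulators lie higher in the red than in the blue points and genes of the last panel lie lower, whereas blue and red points of TP63 and KRT5 lie within 1 unit of each other.

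The secretory program began with LCN2 (lipocalin-2, ENSG00000148346.7), a secreted siderophore binder and the target of the study's hairpins. LCN2 had 21140.4 and 23248 in parental and 51004 and 49615 in shCTL cells, a change of 1.18 (SE 0.25, adjusted p = 0.00641), and 3575 to 21415 in the 4 libraries with an LCN2 hairpin. Of 34 listed secreted defence proteins 16 were tested, 9 were higher and 1 lower (2 lower without either shLCN2_1 library), with a median of 1.24. S100A8, a subunit of calprotectin, which withholds metals from microbes, had 259 and 250.1 in parental and 8449.6 and 8559 in shCTL cells, a change of 5.06 (SE 0.69, adjusted p = 0.000684). Its partner S100A9 had 21213 and 25256 against 55754 and 57898, a change of 1.3 (SE 0.35, adjusted p = 0.0182), with adjusted p-values of 0.0517 to 0.102 when any 1 of the 4 compared libraries was left out. DEFB1, an antimicrobial beta-defensin, had 50.6 and 62.2 against 358 and 347, a change of 2.63 (SE 0.27, adjusted p = 0.000181). SLPI, an abundant airway antiprotease, had 7375 and 6820.3 against 15933 and 14958, a change of 1.12 (SE 0.20, adjusted p = 0.00273). LCN2, S100A9 and SLPI were already abundant in the parental cells, whereas S100A8 and DEFB1 rose from low levels.

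Membrane and secreted mucins were called higher and never lower. Of 23 listed mucins and trefoil proteins 10 were tested, 7 were higher and 0 lower, with a median of 1.86. MUC16, a very large membrane mucin known as the tumour antigen CA125, had 1522 and 1346 in parental and 6971 and 7713 in shCTL cells, a change of 2.36 (SE 0.15, adjusted p = 1.46e-05). MUC20, a small membrane mucin, had 282 and 366 against 3368 and 2988, a change of 3.3 (SE 0.18, adjusted p = 8.4e-06). MUC4, which binds ERBB2, had 502 and 445 against 1363 and 1373, a change of 1.53 (SE 0.14, adjusted p = 9.29e-05). Each of the 3 had its 4 libraries in 2 separate ranges. Of 32 tested enzymes that build O-glycans and add fucose 9 were higher (28.1%) and 3 lower (9.38%), against 23.8% and 21.8% over all genes. Those counts were 18 and 6 without either shLCN2_1 library, and 1 was lower without parental replicate 1 or shCTL replicate 1. GALNT12, which starts O-glycan chains, had 2599.8 and 2586 against 5192 and 5217, a change of 1.01 (SE 0.09, adjusted p = 7.91e-05). FUT2, which adds the fucose of secretor blood groups, had 26.8 and 21.1 against 129 and 136, a change of 2.43 (SE 0.18, adjusted p = 3.19e-05).

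The folding and export machinery of the endoplasmic reticulum was called lower more often than higher. Of 51 tested genes 10 were higher (19.6%) and 18 lower (35.3%), against 23.8% and 21.8% over all genes. The median was -0.09, and only AGR2 changed by at least 1. PDIA3, a disulfide isomerase for glycoproteins, fell from 15187 and 14646 to 9411 and 9386, a change of -0.67 (SE 0.06, adjusted p = 0.000118). HSP90B1, the main chaperone of the compartment, fell from 47206 and 45033 to 32199 and 32027, a change of -0.52 (SE 0.07, adjusted p = 0.000457). HSPA5, the chaperone that senses unfolded protein, rose from 19302 and 19000.1 to 25370.0 and 25396, a change of 0.41 (SE 0.05, adjusted p = 0.000641), as did XBP1, a factor of secretory cells (1431 and 1387 against 2253 and 2264, change 0.68, adjusted p = 0.000124). These changes were small, and each was larger than the difference between the 2 libraries of a group.

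Components of regulated exocytosis were called higher more often than lower, with 12 higher and 4 lower of 25 tested and a median of 0.40, and 1 or 2 lower without parental replicate 1 or either shCTL library. RAB27B, a GTPase of secretory granules and exosomes, had 2392 and 2405 in parental and 6862 and 7047 in shCTL cells, a change of 1.54 (SE 0.15, adjusted p = 0.000152). Its relative RAB27A had the largest fall of the list, a change of -0.73 (adjusted p = 0.0172). That call was lost when any 1 of the 4 compared libraries was left out. SYTL1, which links such GTPases to the plasma membrane, had 98.2 and 130.3 against 317 and 326, a change of 1.5 (SE 0.18, adjusted p = 0.000323). SCIN, an actin-severing protein of secretory cells, had 0 reads in both parental libraries and 35.8 and 51.8 in shCTL cells, at least 13.5-fold higher with 3 reads per library as the floor (adjusted p = 2.83e-05).

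Ion and water transporters made up the next block. Of 40 listed genes 30 were tested, 18 were higher and 4 lower, with a median of 0.76. All 3 subunits of the epithelial sodium channel, through which airway cells reabsorb fluid, rose together. SCNN1A had 2601 and 2803 in parental and 10441 and 9710.2 in shCTL cells, a change of 1.9 (SE 0.11, adjusted p = 1.22e-05). SCNN1B had 5.95 and 2.35 against 187 and 213, a change of 5.38 (SE 0.32, adjusted p = 1.19e-05), or 4.68 with 4 added before log2. SCNN1G had 6.95 and 7.05 against 171 and 163, a change of 4.39 (SE 0.22, adjusted p = 6.07e-06). The alpha subunit was present in parental cells, while the beta and gamma subunits were near the floor there. FXYD3, which tunes the sodium pump, had 1298 and 1285 against 13509.9 and 13279, a change of 3.37 (SE 0.06, adjusted p = 4.84e-08). AQP3, a water and glycerol channel, had 181 and 294 against 1296 and 1340.4, a change of 2.51 (SE 0.22, adjusted p = 7.11e-05). SLC26A2, a sulfate transporter, fell from 4149.7 and 3930.4 to 1305 and 1409.5, a change of -1.57 (SE 0.11, adjusted p = 3.11e-05).

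**Figure D2:**
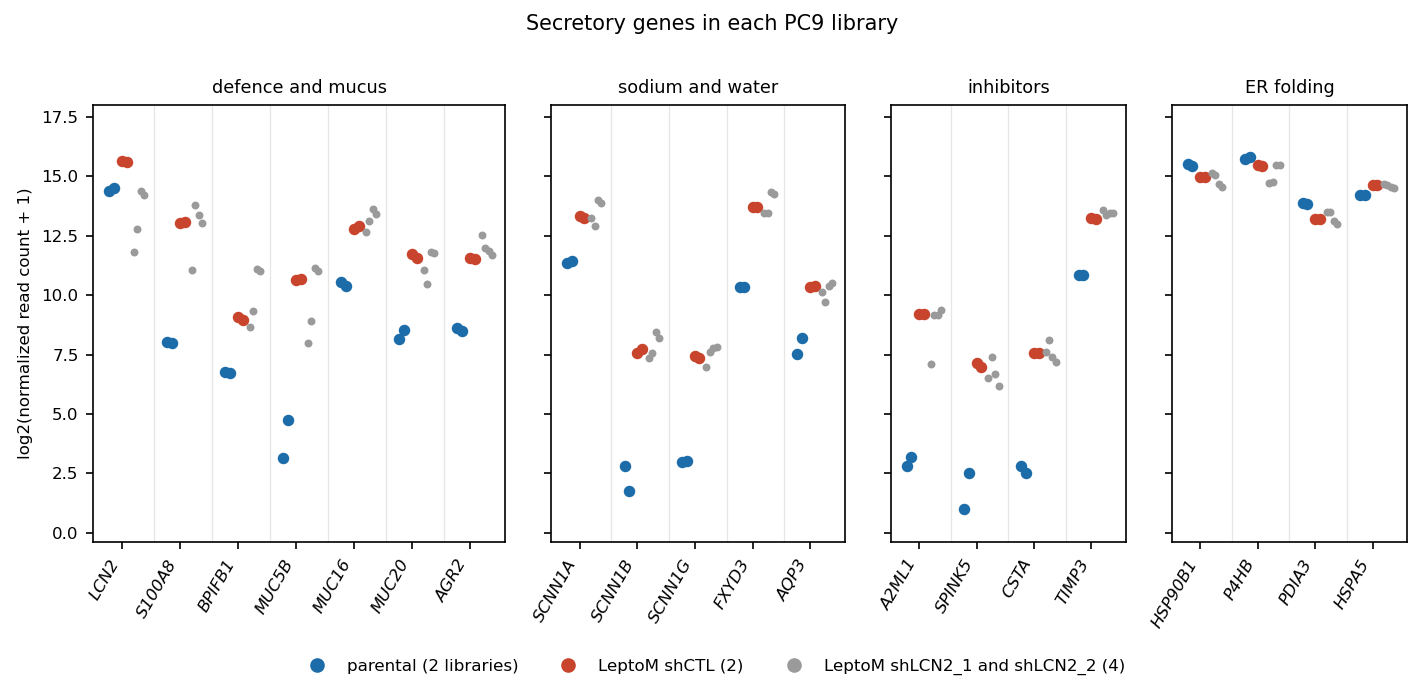
Secretory genes as log2(normalized read count + 1) in each of the 8 PC9 libraries: blue, parental (2); red, LeptoM shCTL (2); grey, LeptoM with either LCN2 hairpin (4). Red points lie above blue points in the first 3 panels, and the endoplasmic reticulum genes differ by less than 1 unit.

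Protease inhibitors and secreted proteases were both called higher more often than lower. The shares higher and lower were 47.1% and 23.5% for inhibitors and 35.3% and 17.6% for proteases. Over all genes they were 23.8% and 21.8%. Of 34 tested inhibitors 16 were higher and 8 lower, with 4 or 5 lower when any 1 of the 4 compared libraries was left out. A2ML1, a broad protease trap of squamous epithelium, had 5.95 and 8.22 in parental and 582 and 591 in shCTL cells, a change of 6.2 (SE 0.54, adjusted p = 7.69e-05). CSTA, a cystatin of the cornified envelope, had 5.95 and 4.7 against 187 and 186, a change of 4.9 (SE 0.22, adjusted p = 3.22e-06). TIMP3, a matrix-bound inhibitor of metalloproteinases, had 1858 and 1862 against 9619.5 and 9551, a change of 2.36 (SE 0.07, adjusted p = 6.12e-07). Of 34 tested proteases 12 were higher and 6 lower, with 2 lower when the minimum mean was 50. TMPRSS4, a membrane serine protease, had 67.5 and 79.9 against 1789 and 1539, a change of 4.48 (SE 0.15, adjusted p = 7.03e-07). KLK10, a kallikrein of skin and mucosa, had 60.5 and 82.2 against 1129 and 995, a change of 3.89 (SE 0.16, adjusted p = 1.59e-06). PLAT, the tissue plasminogen activator, had 448 and 501 against 2662 and 2615, a change of 2.47 (SE 0.14, adjusted p = 1.08e-05). MMP14, the membrane collagenase, fell from 245 and 259.5 to 102 and 107, a change of -1.27 (SE 0.25, adjusted p = 0.00414).

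Cytokines and growth factors were called in both directions, 32.3% higher and 20% lower, against 23.8% and 21.8% over all genes. Of 65 tested 21 were higher and 13 lower, with 8 lower without shCTL replicate 1, and the median was 0.25. WNT5A, a ligand of noncanonical Wnt signalling, had 68.5 and 49.3 in parental and 1008 and 1145 in shCTL cells, a change of 4.19 (SE 0.18, adjusted p = 2.27e-06). EGF, a ligand of the receptor that drives PC9 cells, had 48.6 and 37.6 against 614 and 531, a change of 3.71 (SE 0.15, adjusted p = 1.53e-06). IL1RN, the natural antagonist of interleukin-1, had 157 and 130.3 against 925 and 924, a change of 2.68 (SE 0.15, adjusted p = 8e-06). Both TGF-beta ligands named here fell. TGFB2 went from 2869 and 2812 to 146 and 176, a change of -4.14 (SE 0.16, adjusted p = 1.53e-06), and TGFB1 went from 2916 and 3230.5 to 1421 and 1311, a change of -1.17 (SE 0.10, adjusted p = 7.42e-05). GAS6, the ligand of AXL, fell from 1118 and 1494 to 515 and 462, a change of -1.4 (SE 0.25, adjusted p = 0.00283), beside the fall of its receptor.

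Complement and coagulation proteins were called in both directions equally often. Of 22 tested 7 were higher and 7 lower (31.8% each), against 23.8% and 21.8% over all genes. The counts were 4 higher without either shCTL library and 12 lower without either shLCN2_1 library. CD55, which protects cells from complement, had 845 and 777 in parental and 2403 and 2484 in shCTL cells, a change of 1.59 (SE 0.14, adjusted p = 9.45e-05). CD46, a second such membrane regulator, had 17296 and 16121 against 31569 and 32577, a change of 0.94 (SE 0.07, adjusted p = 2.56e-05). CFD, the serine protease that starts the alternative pathway, also rose, from 38.7 and 59.9 to 438 and 386, a change of 3.07 (SE 0.36, adjusted p = 0.000333). C1R, a protease of the first complement component, fell from 600.3 and 552 to 166 and 157, a change of -1.83 (SE 0.13, adjusted p = 2.47e-05). THBD, the thrombin receptor thrombomodulin, fell from 808 and 789 to 61.5 and 49.8, a change of -3.83 (SE 0.23, adjusted p = 1.32e-05). The central component C3 had 12998 and 13294 against 9551 and 9006, a change of -0.5 with adjusted p = 0.391, and 0.000212 without shLCN2_1 replicate 1.

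Matrix proteins fell more often than any other secretory group. Of 54 tested 27 were lower and 16 higher, with a median of -0.40, and their summed value was 363620 and 380920 in the parental and 193923 and 187753 in the shCTL libraries. The calls were 15 lower without either shCTL library, and 8 or 9 higher without parental replicate 1 or either shCTL library. FN1, fibronectin, was the most abundant member, at 129101 and 118836 in parental and 16743 and 16603 in shCTL cells, a change of -2.89 (SE 0.50, adjusted p = 0.00229). TGFBI, a matrix protein induced by TGF-beta, fell from 20244 and 19440.4 to 7089.8 and 6757, a change of -1.52 (SE 0.22, adjusted p = 0.000841). COL12A1, a fibril-associated collagen, fell from 3138 and 2885 to 436 and 440.0, a change of -2.78 (SE 0.15, adjusted p = 8.34e-06). Against this, MGP, an inhibitor of calcification, rose from 11.9 and 8.22 to 629 and 578, a change of 5.79 (SE 0.18, adjusted p = 5.97e-07). COL8A1, a short-chain collagen of basement membranes, rose from 36.7 and 23.5 to 532 and 513, a change of 4.11 (SE 0.40, adjusted p = 0.000125).

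Enzymes of aldehydes, retinoids and foreign chemicals were called higher more often than lower. Of 38 tested genes of aldehyde, retinoid and alcohol metabolism 16 were higher and 8 lower, with 5 lower without parental replicate 1 or shCTL replicate 2. ALDH1A1, which makes retinoic acid and clears aldehydes, had 34.7 and 25.8 in parental and 842 and 759 in shCTL cells, a change of 4.69 (SE 0.18, adjusted p = 1.09e-06). DHRS9, a retinol dehydrogenase, had 18.9 and 20 against 239 and 232, a change of 3.54 (SE 0.34, adjusted p = 0.000124). CRABP2, which carries retinoic acid to the nucleus, had 6869.5 and 6749.8 against 14379 and 14424, a change of 1.08 (SE 0.07, adjusted p = 1.4e-05). The mitochondrial enzyme ALDH2 went down, from 69.5 and 96.3 to 29.4 and 25.4, a change of -1.55 (SE 0.22, adjusted p = 0.000788). CYP26B1, which breaks down retinoic acid, fell too, from 328 and 375 to 189.9 and 209, a change of -0.81 (SE 0.15, adjusted p = 0.00283). Its relative CYP26A1 went the other way, with a change of 2.53 (adjusted p = 0.0317). That call was lost in the edgeR fit (adjusted p = 0.0576). Of 54 tested genes of xenobiotic metabolism 25 were higher and 5 lower, with 3 lower without either shCTL library. CYP4F3, which inactivates leukotriene B4, had 63.5 and 61.1 against 1473 and 1521, a change of 4.57 (SE 0.16, adjusted p = 7.21e-07). EPHX1, the microsomal epoxide hydrolase, had 3145 and 3115 against 10843 and 10236, a change of 1.75 (SE 0.06, adjusted p = 6.97e-07). The near-identical AKR1C and CYP4F genes share sequence, so counts of single members are uncertain.

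Genes of glutathione, thioredoxin and NADPH supply were called higher more often than lower. Of 51 tested 25 were higher and 11 lower, with 7 lower without shCTL replicate 2, and the median was 0.38. SLC7A11, the cystine importer, had 11032 and 10499 in parental and 22226 and 23329 in shCTL cells, a change of 1.08 (SE 0.06, adjusted p = 1.03e-05). GCLM, a subunit of the first enzyme of glutathione synthesis, had 9829 and 9147 against 15667 and 16225, a change of 0.75 (SE 0.06, adjusted p = 6.09e-05). TXN, thioredoxin, had 15474 and 14613 against 31747 and 32667, a change of 1.1 (SE 0.06, adjusted p = 8.31e-06). PGD and TKT of the pentose phosphate pathway, which makes NADPH and ribose, moved the same way. PGD had 11856 and 11299 against 17211 and 17162 (change 0.57, adjusted p = 0.000178), and TKT had 19017 and 22046 against 38382 and 36144 (change 0.86, adjusted p = 0.00109). GGT1, which breaks down extracellular glutathione, fell from 1038 and 1322 to 502 and 495, a change of -1.23 (SE 0.14, adjusted p = 0.00028). GGT6 went the other way, from 0.99 and 0 to 157 and 185, a change of 6.92 (SE 0.32, adjusted p = 3.48e-06). It had 1 read in all in the parental libraries.

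Many genes of these lists are known targets of the transcription factor NRF2, which binds the antioxidant response element, so the core of that element, TGACNNNGC, was searched on both strands in the 250 bases before each start site in RefSeq windows of GRCh38.p14. Promoters of 3 called genes that hold the core are shown as examples, chosen after their values were seen. Each reads 5′ to 3′ on the strand of the gene, with the core in capitals as it appears on that strand. The window of GPX2, a glutathione peroxidase (change 2.17), is at chr14:64942746-64942995 on the minus strand. The window of CYP4F11, a fatty acid hydroxylase (change 2.3), is at chr19:15934868-15935117 on the minus strand. The window of GCLM (change 0.75) is at chr1:93909431-93909680 on the minus strand.
GPX2: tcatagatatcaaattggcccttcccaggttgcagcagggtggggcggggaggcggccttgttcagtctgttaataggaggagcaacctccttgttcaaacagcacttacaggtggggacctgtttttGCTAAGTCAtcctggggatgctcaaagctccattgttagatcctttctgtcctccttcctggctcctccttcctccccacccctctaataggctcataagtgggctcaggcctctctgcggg
CYP4F11: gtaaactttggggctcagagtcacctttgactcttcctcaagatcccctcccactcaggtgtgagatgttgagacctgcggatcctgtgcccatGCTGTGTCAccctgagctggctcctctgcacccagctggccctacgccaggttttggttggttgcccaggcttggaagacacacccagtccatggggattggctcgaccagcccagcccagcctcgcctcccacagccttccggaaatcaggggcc
GCLM: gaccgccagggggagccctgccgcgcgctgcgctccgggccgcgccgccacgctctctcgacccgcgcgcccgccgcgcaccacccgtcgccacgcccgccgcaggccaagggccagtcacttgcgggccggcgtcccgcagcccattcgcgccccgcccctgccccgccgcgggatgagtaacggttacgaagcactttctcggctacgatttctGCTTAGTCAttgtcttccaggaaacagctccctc
The core starts 122 bases before the start site in GPX2, 156 bases before it in CYP4F11 and 34 bases before it in GCLM, in each on the strand opposite to the gene. Of all 35116 windows 10.9% held the core, and of 11227 tested genes with a window 15.8% held it. It was found in 9 of 42 tested xenobiotic genes with a window (21.4%) and in 8 of 37 tested genes of glutathione, thioredoxin and NADPH supply (21.6%). Among xenobiotic genes it was found in 3 of 18 called higher (16.7%), 2 of 5 called lower (40%) and 4 of 19 not called (21.1%). Among glutathione, thioredoxin and NADPH genes it was found in 5 of 18 called higher (27.8%), 2 of 8 called lower (25%) and 1 of 11 not called (9.09%). A match of these letters is a description and was not tested as a binding site.

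Genes of glycolysis were called lower more often than higher. Of 37 tested genes of glycolysis and lactate 16 were lower (43.2%) and 10 higher (27%), with a median of -0.15. Over all genes 21.8% were lower and 23.8% higher. The counts were 10 lower without shCTL replicate 1, and 6 higher without parental replicate 1 or either shCTL library. LDHA, lactate dehydrogenase, fell from 171157 and 158085 to 106515 and 108328, a change of -0.61 (SE 0.09, adjusted p = 0.000993). PDK1, which keeps pyruvate out of mitochondria, fell from 909.9 and 854 to 402 and 366, a change of -1.2 (SE 0.17, adjusted p = 0.000741). SLC2A3, a high-affinity glucose transporter, fell from 6129 and 5500.4 to 440.4 and 384, a change of -3.82 (SE 0.29, adjusted p = 4.02e-05). Other members rose. LDHD, a D-lactate dehydrogenase, had 8.93 and 8.22 against 110.1 and 83.3, a change of 3.34 (SE 0.28, adjusted p = 6.06e-05), and HKDC1, a hexokinase, had 3586 and 3994 against 6413 and 6492, a change of 0.77 (SE 0.10, adjusted p = 0.000459). GAPDH was the largest gain in value among called genes, from 401180.0 and 421157 to 490757 and 475395, a change of 0.23 (adjusted p = 0.0289), with adjusted p-values up to 0.172 when 1 library was left out and 0.372 with the GC trend removed. FBP1, the key enzyme of gluconeogenesis, which runs glycolysis backwards, rose from 602 and 568 to 3514 and 3636, a change of 2.61 (SE 0.07, adjusted p = 4.09e-07), with nearly the same value in both libraries of each group. As a whole the gluconeogenesis, fructose and glycogen list did not stand out, with 8 higher (30.8%) and 6 lower (23.1%) of 26 tested. Its counts were 2 to 5 higher when parental replicate 1 or any 1 of the shCTL and shLCN2_2 libraries was left out, 5 higher with the GC trend removed, and 3 lower without shCTL replicate 1.

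**Figure D3:**
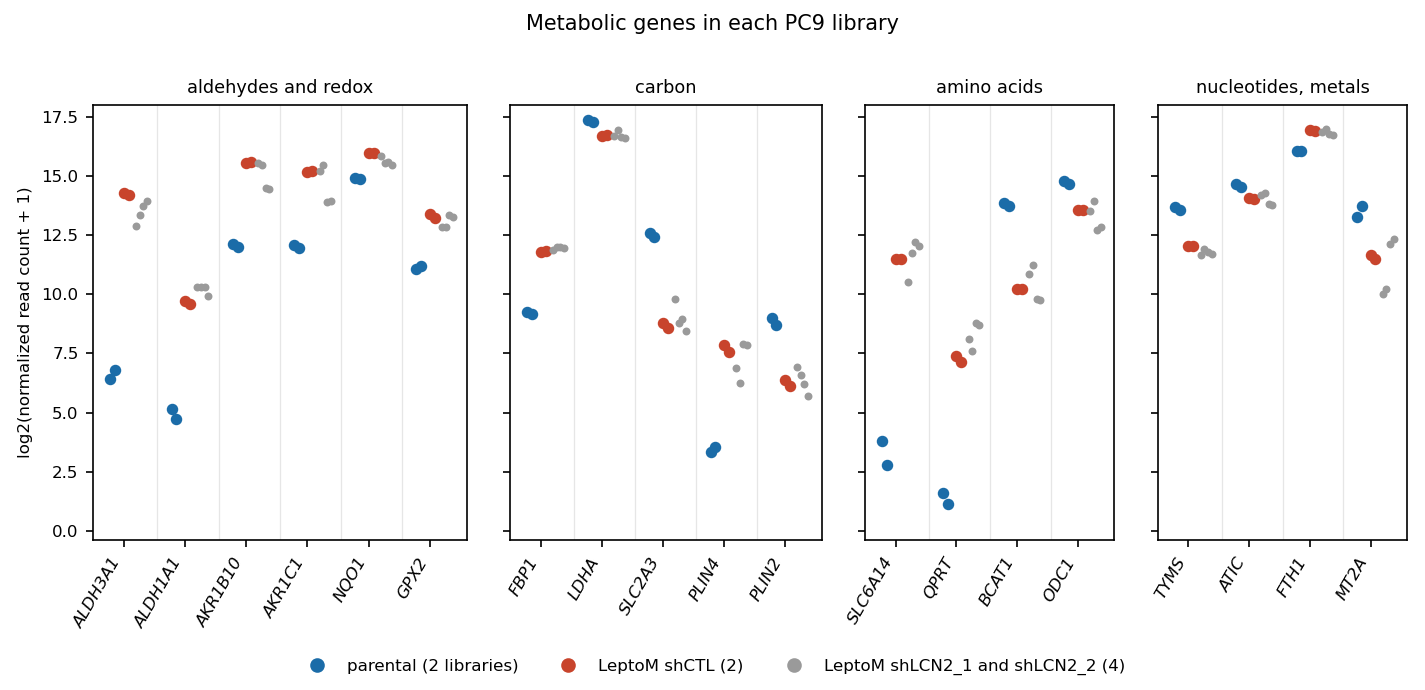
Metabolic genes as log2(normalized read count + 1) in each of the 8 PC9 libraries: blue, parental (2); red, LeptoM shCTL (2); grey, LeptoM with either LCN2 hairpin (4). Red points lie above blue points for the aldehyde and redox genes, FBP1, PLIN4, SLC6A14, QPRT and FTH1, and below them for LDHA, SLC2A3, PLIN2, BCAT1, ODC1, TYMS, ATIC and MT2A.

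Citrate cycle genes were called in both directions, and nuclear genes of the respiratory chain more often higher. Over all genes 23.8% were higher and 21.8% lower, against 19.4% and 32.3% in the citrate cycle list. Of 31 tested citrate cycle genes 6 were higher and 10 lower, with 3 higher without shCTL replicate 1 and 5 or 6 lower without shCTL replicate 1 or 2. ACO1, the cytosolic aconitase, fell from 6245 and 6095 to 1432 and 1419, a change of -2.11 (SE 0.07, adjusted p = 6.12e-07). DLST, a subunit of 2-oxoglutarate dehydrogenase, fell from 27682 and 25887 to 17390.2 and 16885, a change of -0.64 (SE 0.06, adjusted p = 0.00015). IDH3A, of the NAD-linked isocitrate dehydrogenase, fell from 4644 and 4454 to 2616 and 2674, a change of -0.78 (SE 0.08, adjusted p = 0.000127). Of 71 tested nuclear genes of the respiratory chain 27 were higher and 6 lower, with a median of 0.14, and 10 or 14 were higher without shCTL replicate 1 or 2. Without parental replicate 1 or either shCTL library 1 or 2 were lower. COX6B1, a subunit of cytochrome oxidase, had 5422 and 5395 against 7984 and 7411, a change of 0.51 (SE 0.07, adjusted p = 0.000741). NDUFS1, an iron-sulfur subunit of complex I, fell from 7162 and 6630.1 to 4358 and 4369.9, a change of -0.66 (SE 0.06, adjusted p = 0.00011). The mitochondrial ribosomal RNA MT-RNR2 was the largest loss in value among called genes, from 237141 and 279919 to 132197 and 143940.0, a change of -0.9 (SE 0.14, adjusted p = 0.00141). The mitochondrially encoded MT-ND1 fell as well, from 94752 and 94257 to 49601 and 53584, a change of -0.87 (SE 0.08, adjusted p = 9.82e-05).

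Lipid genes were called in both directions. In the fatty acid synthesis list 34.1% were higher and 20.5% lower, against 23.8% and 21.8% over all genes. Of 44 tested genes of fatty acid synthesis, storage and desaturation 15 were higher and 9 lower, with 15 lower without either shLCN2_1 library. The lipid droplet coat proteins PLIN4 and PLIN2 moved in opposite directions. PLIN4 rose from 8.93 and 10.6 to 228 and 186, a change of 4.27 (SE 0.24, adjusted p = 8.32e-06), and PLIN2 fell from 507 and 409.8 to 81.7 and 68.1, a change of -2.6 (SE 0.23, adjusted p = 7.94e-05). ACSL5, which activates fatty acids, fell from 1123 and 1202 to 132 and 124, a change of -3.17 (SE 0.11, adjusted p = 9.2e-07), and LPL, which releases them from lipoproteins, fell from 525 and 529.6 to 124 and 119.9, a change of -2.1 (SE 0.20, adjusted p = 0.000123). Of 38 tested oxidation genes 11 were higher (28.9%) and 5 lower (13.2%), against 23.8% and 21.8% over all genes. The counts were 7 higher when any 1 of the shCTL and shLCN2_2 libraries was left out, 2 or 3 lower without parental replicate 1 or either shCTL library, and 8 lower without either shLCN2_1 library. ACOX2, of peroxisomal oxidation, had 276 and 247 against 787 and 765, a change of 1.57 (SE 0.16, adjusted p = 0.000152). Of 31 tested cholesterol genes 10 were higher and 1 lower. That gain was 4 or 5 genes without parental replicate 1 or either shCTL library and 22 without either shLCN2_1 library, when 3 were lower.

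Amino acid transporters were called higher more often than lower, and single enzymes changed strongly. Of 30 tested transporters 13 were higher and 7 lower, with 4 lower without parental replicate 1 or shCTL replicate 2. SLC6A9, a glycine transporter, had 408 and 440.4 in parental and 1568 and 1539 in shCTL cells, a change of 1.87 (SE 0.09, adjusted p = 4.98e-06). SLC1A1, for glutamate and aspartate, had 401 and 361 against 944 and 983, a change of 1.34 (SE 0.16, adjusted p = 0.000343). Of 51 tested enzymes of amino acid, serine and one-carbon synthesis 18 were higher (35.3%) and 11 lower (21.6%). Over all genes those shares were 23.8% and 21.8%. BCAT1, the cytosolic branched-chain aminotransferase, fell from 14794 and 13655 to 1194 and 1197, a change of -3.57 (SE 0.12, adjusted p = 6.16e-07). ODC1, the first enzyme of polyamine synthesis, fell from 28507 and 26170.3 to 12235 and 12217, a change of -1.16 (SE 0.12, adjusted p = 0.000192). MTHFD1, of the folate cycle, fell from 19227 and 17934 to 8947 and 8917, a change of -1.06 (SE 0.08, adjusted p = 4.47e-05). ASNS, asparagine synthetase, rose from 1540.0 and 1399.8 to 3444 and 3332, a change of 1.21 (SE 0.08, adjusted p = 2.61e-05). QPRT, which turns the tryptophan product quinolinate toward NAD, had 1.98 and 1.17 against 167 and 139, 3 reads in all in the parental libraries, and its change of 5.91 (adjusted p = 1.67e-06) depends on the 1 added, being 4.81 with 4 added.

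Nucleotide synthesis was the metabolic list with the highest share of losses. Of 40 tested 20 were lower and 5 higher, with a median of -0.28. The counts were 9 and 11 lower without shCTL replicate 1 or 2, and 2 higher without shCTL replicate 1. TYMS, thymidylate synthase, fell from 13384 and 12307 to 4189 and 4210.3, a change of -1.61 (SE 0.08, adjusted p = 7.1e-06). ATIC, of purine synthesis, fell from 26242 and 24024 to 17262 and 16670.5, a change of -0.57 (SE 0.07, adjusted p = 0.000366). ADSL, of the same pathway, fell from 4809.6 and 4312 to 2619 and 2755, a change of -0.76 (SE 0.08, adjusted p = 0.000205). RRM2, a subunit of ribonucleotide reductase, had 29242 and 28535 against 23938 and 23998, a change of -0.27 with adjusted p = 0.268, and 0.00094 without shLCN2_1 replicate 1. APRT, which salvages adenine, rose from 2310.0 and 3181 to 4943 and 4573, a change of 0.81 (SE 0.14, adjusted p = 0.00217).

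Eicosanoid and steroid enzymes were called higher far more often than lower, with 15 higher and 2 lower of 29 tested and a median of 0.69. PTGS1, the constitutive cyclooxygenase, had 24.8 and 10.6 in parental and 349 and 332 in shCTL cells, a change of 4.3 (SE 0.33, adjusted p = 4.14e-05). PTGES, which makes prostaglandin E2, had 1248 and 1871 against 6867 and 6609.7, a change of 2.14 (SE 0.16, adjusted p = 3.46e-05). HPGD, which inactivates prostaglandins, had 147 and 149 against 834 and 826, a change of 2.48 (SE 0.22, adjusted p = 9.01e-05). ALOX5, the 5-lipoxygenase, had 1662 and 1819 against 4619 and 4409, a change of 1.38 (adjusted p = 0.000382), while its activating protein ALOX5AP fell from 172 and 155 to 12.8 and 13.2, a change of -3.55 (adjusted p = 0.00493).

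Metal handling genes moved in both directions. Of 30 tested 9 were higher (30%) and 11 lower (36.7%), against 23.8% and 21.8% over all genes. The ferritin chain FTH1, which stores iron, rose from 69145 and 67574 to 126909 and 124026, a change of 0.88 (SE 0.07, adjusted p = 5.05e-05), and FTL rose from 78859 and 78468 to 116241 and 109902, a change of 0.52 (SE 0.09, adjusted p = 0.00237). Metallothioneins, which bind zinc and copper, were among the losses. MT2A went from 9737 and 13745 to 3199 and 2862, a change of -1.93 (SE 0.16, adjusted p = 5.92e-05), and MT1X went from 1079 and 1078 to 253 and 241, a change of -2.12 (SE 0.17, adjusted p = 4.61e-05). SLC39A10, a zinc importer, fell from 4201 and 3966 to 1000.1 and 953, a change of -2.06 (SE 0.07, adjusted p = 8.41e-07). Ferritin pseudogenes and metallothionein copies can share reads with these genes.

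Several of the 12 largest rises and 12 largest falls lay outside the lists, among them CEACAM5, a tumour antigen (change 7.78), and LCP1, an actin bundler of leukocytes (change -5.49). MAGEA1, a cancer-testis antigen, had 15.9 and 22.3 in parental and 1665 and 1749 in shCTL cells, a change of 6.43 (SE 0.15, adjusted p = 1.54e-07). PIP5K1B, a phosphoinositide kinase, had 3.97 and 5.87 against 481 and 473, a change of 6.35 (SE 0.17, adjusted p = 3.19e-07), or 5.76 with 4 added before log2. ZNF91, a zinc finger repressor of transposable elements, had 0 reads in both parental libraries and 105 and 96.5 in shCTL cells, at least 30.9-fold higher with 3 reads per library as the floor (adjusted p = 8.66e-07). SDK1, a neuronal adhesion protein, fell from 409.8 and 346 to 11 and 9.15, a change of -5.1 (SE 0.24, adjusted p = 3.48e-06). CELF2, an RNA-binding splicing factor, fell from 162 and 182 to 2.75 and 6.1, a change of -5.06 (SE 0.38, adjusted p = 3.86e-05), or -4.41 with 4 added before log2. The 12 largest rises and falls were chosen among genes whose 2 shCTL and 2 parental libraries did not overlap, so their separation is no separate result.

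The same contrast in MDA231, a breast cancer line with its own LeptoM derivative, served to show where PC9 differed. In a joint fit of 13392 genes in 16 libraries the PC9 change was above the MDA231 change for 2813 genes (21.0%) and below it for 3160 (23.6%). Of 3252 genes called in both lines 1386 had opposite directions, 590 of them higher in PC9. Of 58 genes among the largest changes and the called lineage factors that were tested in both lines, 18 were called in opposite directions. NQO1, a quinone reductase and NRF2 target, changed by 1.07 in PC9 and -1.68 in MDA231, a difference of 2.75 (SE 0.12, adjusted p = 3.63e-08). NR2F1 changed by -2.86 and 1.55, a difference of -4.41 (SE 0.32, adjusted p = 1.29e-06). TGM2, a transglutaminase that cross-links matrix, changed by -1.67 and 1.82, a difference of -3.48 (SE 0.23, adjusted p = 5.97e-07). The MDA231 parental libraries held 11592790 and 11613984 gene reads against 43673426 and 41751486 in the MDA231 shCTL libraries, so depth and derivation cannot be told apart in that line, and the tables were normalized separately.

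**Figure D4:**
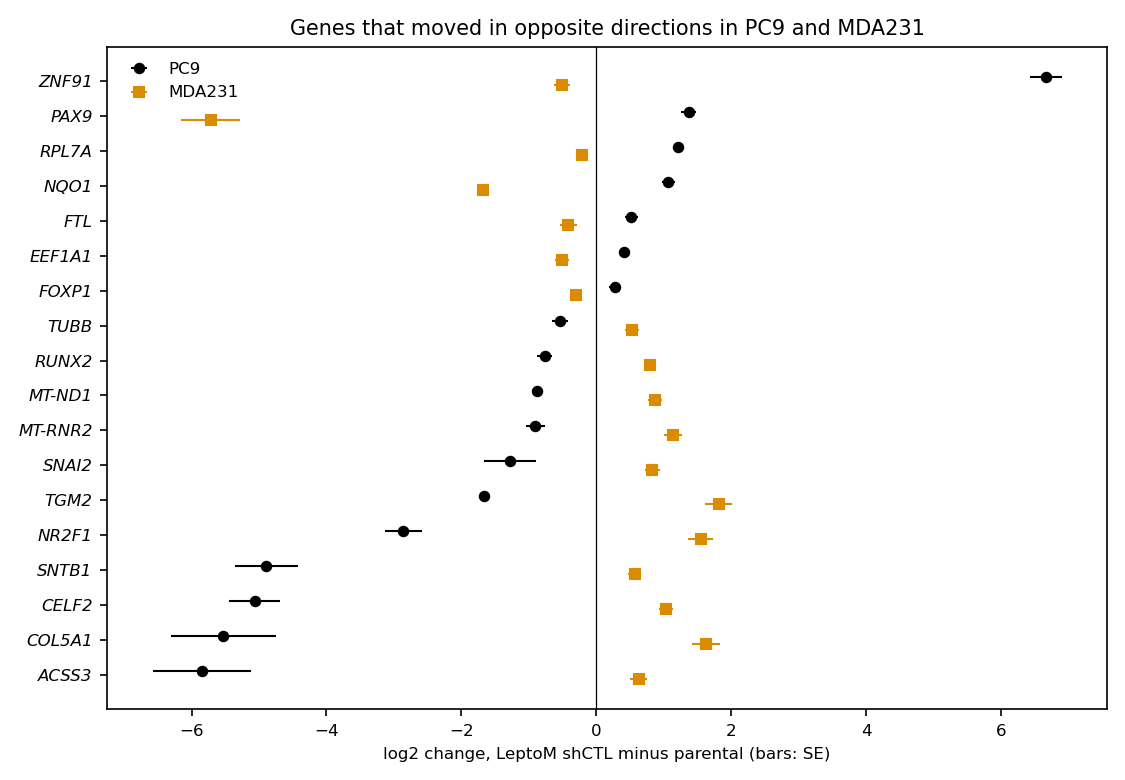
Log2 change between LeptoM shCTL and parental cells in PC9 (black circles) and MDA231 (orange squares) for the 18 described genes called in opposite directions, with bars of 1 SE from limma. PC9 points lie right of 0 for 7 genes and left of 0 for 11.

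Depth did not separate the compared groups. The parental libraries held 44379970 and 37564003 gene reads and the shCTL libraries 47457769 and 42492567, and 3 reads correspond to a value of 2.75 to 3.52 in them. Parental replicate 2 stood apart in its reads aligned to more than 1 place, which amounted to 42.4% of its gene reads against 18.1 to 20.6% in the other PC9 libraries. The chi-square of replicate reads per degree of freedom was 18.6 in the parental pair, 3.08 in the shCTL pair and 43.2 in the shLCN2_1 pair. GC content of genes moved with the contrast, with median log2 changes from -0.10 in the lowest to 0.27 in the highest of 5 GC bins, and its part in the list counts was not tested beyond the fit with the GC trend removed.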

How the data were processed

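Polyadenylated RNA was sequenced from stranded TruSeq libraries, per the labels' protocols. The deposited values are a signal, gene read counts divided by 1 size factor per library, and the submitters' processing notes name HTSeq 0.5.3, DESeq2 1.22.1 and hg19. The aligner and the strand setting are not given in the sources used here. Whole reads were recovered from 100% of values within 0.001 read. Genes with a mean of at least 10 were tested with limma 3.58.1 in R 4.3.3, with a trended prior, on log2(value + 1) in 8 libraries and 4 groups, and called at an adjusted p under 0.05. Fits on recovered reads with edgeR 4.0.16 and DESeq2 1.42.0, other scalings, filters and constants, a GC correction, a replicate block and leaving out each library were alternatives. GC content came from a GENCODE annotation in the reference. The test was checked on simulated data with the same spread in all groups, so the check did not cover the unequal spread of these libraries. Named genes were LCN2, the 12 largest rises and falls, the 10 largest gains and losses in value, up to 4 called members per list and direction, and all called lineage factors. Rises, falls and members per list needed a mean of at least 50 in the higher group. The rises and falls also needed a call and no overlap between the shCTL and parental libraries. Gains and losses in value were taken among called genes. Members and lists were chosen with earlier results of these data known. Rows that name no gene equalled 24.4 to 36.5% of all PC9 reads and were left out. The floor is 3 reads per library and covers counting error only. Results for some genes are not reported here.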

Additional observations from a re-analysis of the deposited data

Results flagged for a closer look

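For 18 genes the contrast of LeptoM shCTL with parental cells was called in opposite directions in PC9 and MDA231, and the difference between the lines was tested in the joint limma fit. Differences are the PC9 log2 change minus the MDA231 log2 change. MDA231 depth differs between its groups, and the part of depth in these differences was not tested.

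The genes lower in PC9 and higher in MDA231 included matrix and mesenchymal genes. COL5A1, a fibrillar collagen, changed by -5.53 in PC9 and 1.63 in MDA231, a difference of -7.16. NR2F1 differed by -4.41, TGM2 by -3.48, and SNAI2, a repressor of epithelial genes, by -2.11. The call of SNAI2 in PC9 was lost without single compared libraries (adjusted p 0.0616 to 0.155). ACSS3, an acyl-CoA synthetase under the floor of 3 reads per library in PC9 shCTL cells, differed by -6.48, CELF2 by -6.10 and SNTB1, a syntrophin, by -5.46. The PC9 change of SNTB1 was -4.89, and -5.62 or -4.15 without shCTL replicate 1 or 2. RUNX2, an osteoblast factor, differed by -1.56 and TUBB, a tubulin, by -1.06, the latter with adjusted p = 0.0558 in PC9 without shCTL replicate 2. The mitochondrial transcripts MT-RNR2 and MT-ND1 differed by -2.04 and -1.74.

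The genes higher in PC9 and lower in MDA231 included NQO1, which differed by 2.75, the ferritin chain FTL by 0.93, and the developmental factor PAX9 by 7.09. The PAX9 difference depends on the constant added, because the MDA231 shCTL libraries had 0 reads of it. ZNF91 differed by 7.17, a value that depends on the constant added because it had 0 reads in parental PC9 cells. The translation genes EEF1A1 and RPL7A differed by 0.93 and 1.43, and EEF1A1 had adjusted p = 0.0507 in PC9 without shCTL replicate 1. FOXP1, a forkhead factor, differed by 0.59, and its PC9 call was lost without single compared libraries (adjusted p 0.0542 to 0.209).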

How the results depend on the processing

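The counts of called genes in PC9 were lowest when either shCTL library was left out. Leaving out 1 library gave 2247 to 4537 genes higher and 1914 to 4352 lower, and 1205 to 1587 higher and 535 to 658 lower with a log2 change of at least 1. With a minimum mean of 50, 980 genes were higher by at least 1. The difference between the lines was above 0 for 2160 to 3410 genes and below 0 for 2565 to 4025. Of 360 described genes called in PC9, 291 were called under every alternative that was run and 69 lost the call under at least 1, 60 of them without shCTL replicate 1. Among 7605 values no described gene changed direction where the main or the alternative value was called. Sign changes where neither was called were not counted. Of 1520 list counts under an alternative 1395 were within 1.5 times. Replicate numbers did not pair the samples, with a correlation of replicate differences of -0.01 between parental and shCTL libraries, and a replicate block gave 3620 genes higher and 3254 lower. With 2 libraries a group, small changes are limited by the spread between libraries, and genes near 3 reads by depth.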
